A study of Mus musculus with 40 samples.

Results

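The genes described here are the developmental transcription factors of 9 families outside the Hox clusters, which are Dlx, Irx, Lhx, Msx, Nkx, Pax, Sox, Tbx and the sine oculis family. They were taken by symbol, with all numbered members of the families except Pax5, Sox9 and Sox10 and with every symbol that starts with Nkx, which gave 81 of the 22552 genes of the deposited table. RNA of whole mouse mammary glands was sequenced in 31 libraries, and the table gives 1 value of the authors for each of 12 groups. All mice were outbred. At p13 and p18, days 13 and 18 of pregnancy, the groups were Ezh1 het Ezh2 KO (E1+/-;E2f/f with MMTV-Cre), Ezh2 KO (Ezh2f/f with MMTV-Cre), Ezh1 KO (E1-/-) and control (MMTV-Cre). Virgin females of 12 weeks gave 4 further groups, Ezh2 KO and control, each after and before prolactin. At estrus a fat pad without its lymph node was removed under avertin as the gland before prolactin. Prolactin at 5 µg per g was injected into the same mice after they had recovered, and the opposite pad was taken 2 h later, so surgery and time came with the hormone.

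Polycomb repressive complex 2 (PRC2) places the mark H3K27me3, methylation of lysine 27 on histone H3, through the catalytic subunit EZH2 or EZH1. In embryonic cells the mark covers the promoters of many developmental regulators, these families included, while they are silent. The promoters it covers are often rich in CG dinucleotides. Several of the genes also shape the mammary gland itself: in mouse embryos Tbx3 is needed for the mammary placode and Msx2 for growth of the bud, and Irx and Sox genes mark epithelial or vascular cells of many organs.

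The MMTV promoter is used to drive Cre in the mammary epithelium, though it can also act in other cells such as lymphoid ones, and a whole gland holds fat, vessels and other cells besides. The Ezh1 KO is labelled with no Cre. Ezh1 stood at 1.06 FPKM (fragments per kilobase of transcript and sequencing depth) in Ezh1 KO glands at p13, against 14.7 FPKM in control, and at 0.627 FPKM in Ezh1 KO glands at p18, against 7.37 FPKM in control. Ezh2 stood at 13.7 FPKM in Ezh2 KO glands at p13, against 12.9 FPKM in control, and at 6.41 FPKM in Ezh2 KO glands at p18, against 10.0 FPKM in control. The deleted exons are not named in the labels, so this level of Ezh2 RNA does not check the deletion. Luminal and basal epithelial markers were present in all groups, with summed levels of 903 to 2593 FPKM over 12 luminal genes and 314 to 1705 FPKM over 10 basal genes. Markers of 12 skeletal muscle genes summed to 10058 FPKM in the p13 control and 2491 FPKM in the p13 Ezh1 KO, against 11.4 to 436 FPKM in the other groups. For 6 liver markers the sum was 372 FPKM in the p13 Ezh1 KO, against 3.53 to 122 FPKM in the other groups. Markers of B cells summed to 154 FPKM in virgin Ezh2 KO glands before prolactin and 126 FPKM in virgin control glands after it, the highest of the 12 groups, and to 1.13 FPKM in virgin Ezh2 KO glands after it, the lowest. The virgin groups and Ezh1 KO at p18 had 2 libraries each and the other groups 3. The table gives 1 value per group and none per library. Thus no value has an SD and no difference a replicate check or a p-value, and read depth is unknown.

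Promoter sequence is shown for 5 of the genes that passed the threshold used below, from 3 families, to set their CG content side by side, as the RefSeq table on GRCm38.p6 holds it. Each line gives the 250 bases before the annotated start, 5′ to 3′ on the strand of the gene, with every CG dinucleotide in capitals.
Irx2: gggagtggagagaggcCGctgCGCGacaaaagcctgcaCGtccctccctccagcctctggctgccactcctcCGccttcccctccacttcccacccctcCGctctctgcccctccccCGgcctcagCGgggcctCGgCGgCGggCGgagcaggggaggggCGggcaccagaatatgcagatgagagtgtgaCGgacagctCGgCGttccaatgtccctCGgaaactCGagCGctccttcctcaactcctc
Irx3: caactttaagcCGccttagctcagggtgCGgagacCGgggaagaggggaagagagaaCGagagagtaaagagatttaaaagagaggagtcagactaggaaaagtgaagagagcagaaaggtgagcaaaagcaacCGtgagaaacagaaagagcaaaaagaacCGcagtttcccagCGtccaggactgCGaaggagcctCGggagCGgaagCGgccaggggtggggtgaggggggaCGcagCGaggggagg
Irx4: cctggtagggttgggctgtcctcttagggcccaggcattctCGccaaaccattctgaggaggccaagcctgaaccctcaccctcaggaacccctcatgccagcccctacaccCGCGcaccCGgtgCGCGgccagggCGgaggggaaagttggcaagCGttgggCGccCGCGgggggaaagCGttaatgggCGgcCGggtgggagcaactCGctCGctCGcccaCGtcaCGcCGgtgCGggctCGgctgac
Msx2: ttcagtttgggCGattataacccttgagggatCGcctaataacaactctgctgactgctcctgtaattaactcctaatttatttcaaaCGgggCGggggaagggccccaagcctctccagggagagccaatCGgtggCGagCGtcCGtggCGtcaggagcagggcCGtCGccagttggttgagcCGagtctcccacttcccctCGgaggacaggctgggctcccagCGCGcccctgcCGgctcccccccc
Lhx8: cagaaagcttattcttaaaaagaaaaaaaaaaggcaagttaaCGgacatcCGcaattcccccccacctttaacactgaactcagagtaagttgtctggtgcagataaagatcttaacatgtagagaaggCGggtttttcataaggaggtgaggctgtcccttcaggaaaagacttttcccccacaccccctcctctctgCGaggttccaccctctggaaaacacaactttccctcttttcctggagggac
The stretches lie at chr13:72628570-72628819 on the plus strand for Irx2, chr8:91801655-91801904 on the minus strand for Irx3, chr13:73260247-73260496 on the plus strand for Irx4, chr13:53472781-53473030 on the minus strand for Msx2 and chr3:154330561-154330810 on the minus strand for Lhx8. CG occurred 19 times in the Irx2 stretch, and 19.7% of the 32851 mouse promoters in the table hold at least as many. It occurred 22 times for Irx4, a count reached by 14.8% of promoters, 16 times for Msx2, reached by 25.4%, and 13 times for Irx3, reached by 31.5%. Lhx8 had 4, below the median of 6 over all promoters. The motif TTCNNNGAA, the palindrome bound by STAT5, was searched as written, since it reads the same on both strands. It was in none of the 5 stretches and in 7.02% of all promoters. A promoter was held for 58 of the 81 genes (71.6%), too few for a check over the whole set, which is void.

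Most of the 81 genes were close to silent in the gland. In 49 of them no group reached 1 FPKM, and 34 of those stayed below 0.1 FPKM in every group. The remaining 32 reached 1 FPKM in at least 1 group, 15 of them in all 12 groups, and 11 reached 10 FPKM. Over the whole table, 14273 of 22552 genes (63.3%) reached 1 FPKM, against 39.5% of these. None of the 81 was listed at 0 in every group.

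The families differed in how many of their genes were detected. Of the 8 Pax genes none reached 1 FPKM, and the highest of them was Pax1, a regulator of the vertebral column, at 0.179 FPKM in virgin control glands before prolactin. Of the 14 Nkx genes 1 did, and of the 8 Lhx genes 2 did. Of the 6 Irx genes 5 did, each of them in all 12 groups. The Sox family had 10 of 17 genes at that level, the Tbx family 6 of 13, the sine oculis family 3 of 6, Dlx 3 of 6 and Msx 2 of 3. The highest value among the genes that stayed below it was 0.728 FPKM for Tbx5, a regulator of heart and forelimb, in Ezh1 KO glands at p13. Elsewhere such values included 0.353 FPKM for Sox15, 0.316 FPKM for Lhx5, 0.210 FPKM for Msx3, 0.169 FPKM for Six2, 0.0848 FPKM for Irx6 and 0.0200 FPKM for Dlx6.

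**Figure D1:**
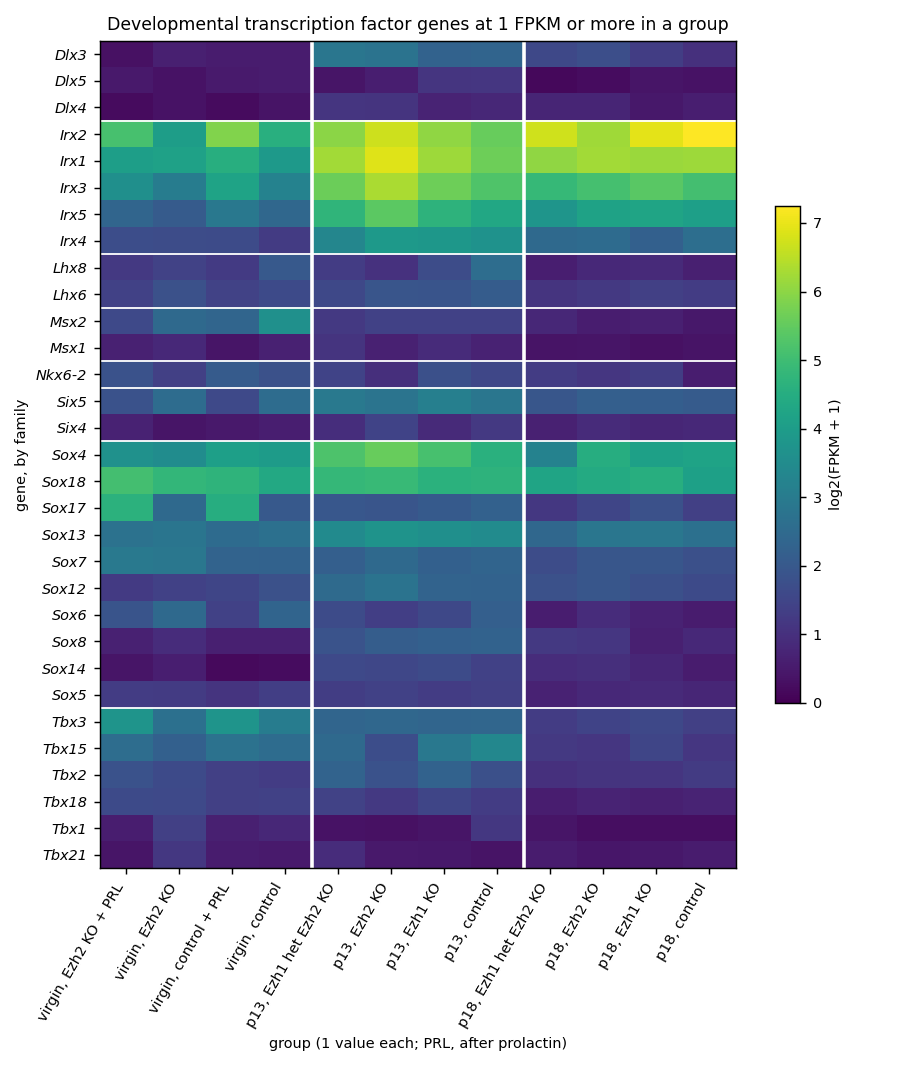
Level of 31 of the 32 genes that reached 1 FPKM in a group, as log2(FPKM + 1), with families divided by white horizontal lines and stages by white vertical lines, 1 value per group. The highest values lie in the Irx rows, up to 151 FPKM for Irx2 in the p18 control, and Sox17 is brightest in both virgin groups after prolactin.

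The FPKM of the 49 genes below 1 FPKM summed to 4.10 in Ezh1 het Ezh2 KO, 2.30 in Ezh2 KO, 3.05 in Ezh1 KO and 2.34 in control glands at p13, and to 1.26, 1.28, 1.60 and 1.12 in those groups at p18. In virgin glands the sum was 1.87 after and 2.57 before prolactin in Ezh2 KO, and 2.09 after and 2.13 before it in control. Ezh1 het Ezh2 KO at p13 held the highest sum, and 10 of the 49 genes had their own highest value there. Ezh1 KO held the highest value of 7 at p13 and of 7 at p18. The share over all genes is not given for these counts or for the counts of zeros that follow. Neither can therefore be read as particular to these genes. Of the 49 genes, 6 were listed at 0 in Ezh1 het Ezh2 KO at p13, 6 in Ezh1 KO at p18 and 14 in the p13 control. Among the 10 was the heart regulator Nkx2-5 at 0.440 FPKM, which was listed at 0 in the p13 control. Nkx2-2as, which the Nkx rule also takes, is an antisense RNA. The sources used here do not say whether strand was counted, so its reads and those of Nkx2-2 may be mixed.

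Some genes that lie next to each other had very unequal levels. Each level given here is the highest over the 12 groups, and neighbours can have theirs in different groups. No rate over all adjacent genes is given. By gene order in RefSeq on GRCm38, 17 pairs of the 81 genes lie side by side with no protein-coding gene between them. On chromosome 8 Irx5 reached 41.7 FPKM and its neighbour Irx6 only 0.0848 FPKM. Tbx3 reached 12.6 FPKM and its neighbour Tbx5 0.728 FPKM. On chromosome 13 the 3 neighbours Irx1, Irx2 and Irx4 were all detected, at up to 118, 151 and 14.2 FPKM.

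The Iroquois genes, homeodomain factors that pattern heart, limb, neural tube and other organs, had the highest single levels of the 81 genes in pregnant glands, compared per transcript length as FPKM. Summed over the family, the level was 67.7 FPKM after and 44.9 FPKM before prolactin in virgin Ezh2 KO glands, and 106 FPKM after and 50.8 FPKM before it in virgin control glands. At p13 the sum was 219 FPKM in Ezh1 het Ezh2 KO, 355 FPKM in Ezh2 KO, 222.5 FPKM in Ezh1 KO and 164 FPKM in control glands. At p18 it was 213, 202 and 255 FPKM in the same 3 knockouts and 276 FPKM in control. In FPKM as deposited, the Ezh2 KO was thus the highest group at p13 and the lowest at p18. Under all 3 rescalings it stayed the highest at p13, but the Ezh1 het Ezh2 KO was then the lowest at p18, with 142 against 197 FPKM in Ezh2 KO for a common sum.

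Irx2 stood at 34.5 FPKM after and 15.5 FPKM before prolactin in virgin Ezh2 KO glands, and at 57.9 FPKM after and 22.8 FPKM before it in virgin control glands. At p13 it stood at 62.2 FPKM in Ezh1 het Ezh2 KO, 102 FPKM in Ezh2 KO, 64.9 FPKM in Ezh1 KO and 46.3 FPKM in control, and at p18 at 104, 72.4, 123 and 151 FPKM in the same groups. All pregnant groups but the p13 control lay above all virgin groups. Irx1 stood at 74.4 FPKM in Ezh1 het Ezh2 KO, 118 FPKM in Ezh2 KO, 71.0 FPKM in Ezh1 KO and 48.6 FPKM in control at p13, but within 64.2 to 74.2 FPKM in all 4 groups at p18. In virgin glands Irx1 ran from 13.9 to 22.3 FPKM.

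Irx3 and Irx5, neighbours whose human counterparts are tied to adipocyte energy use, were likewise highest in Ezh2 KO and lowest in control at p13. Irx3 stood at 47.8 FPKM in Ezh1 het Ezh2 KO, 78.9 FPKM in Ezh2 KO, 48.7 FPKM in Ezh1 KO and 37.2 FPKM in control. Irx5 stood at 25.9, 41.7, 24.6 and 19.5 FPKM in those groups. Irx4, a regulator of heart ventricles, was lowest in Ezh1 het Ezh2 KO, with 9.09 FPKM in Ezh1 het Ezh2 KO, 14.2 FPKM in Ezh2 KO, 13.3 FPKM in Ezh1 KO and 11.9 FPKM in control at p13. Its level was 3.70 to 5.19 FPKM over the p18 groups and 1.41 to 2.28 FPKM over the virgin groups.

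**Figure D2:**
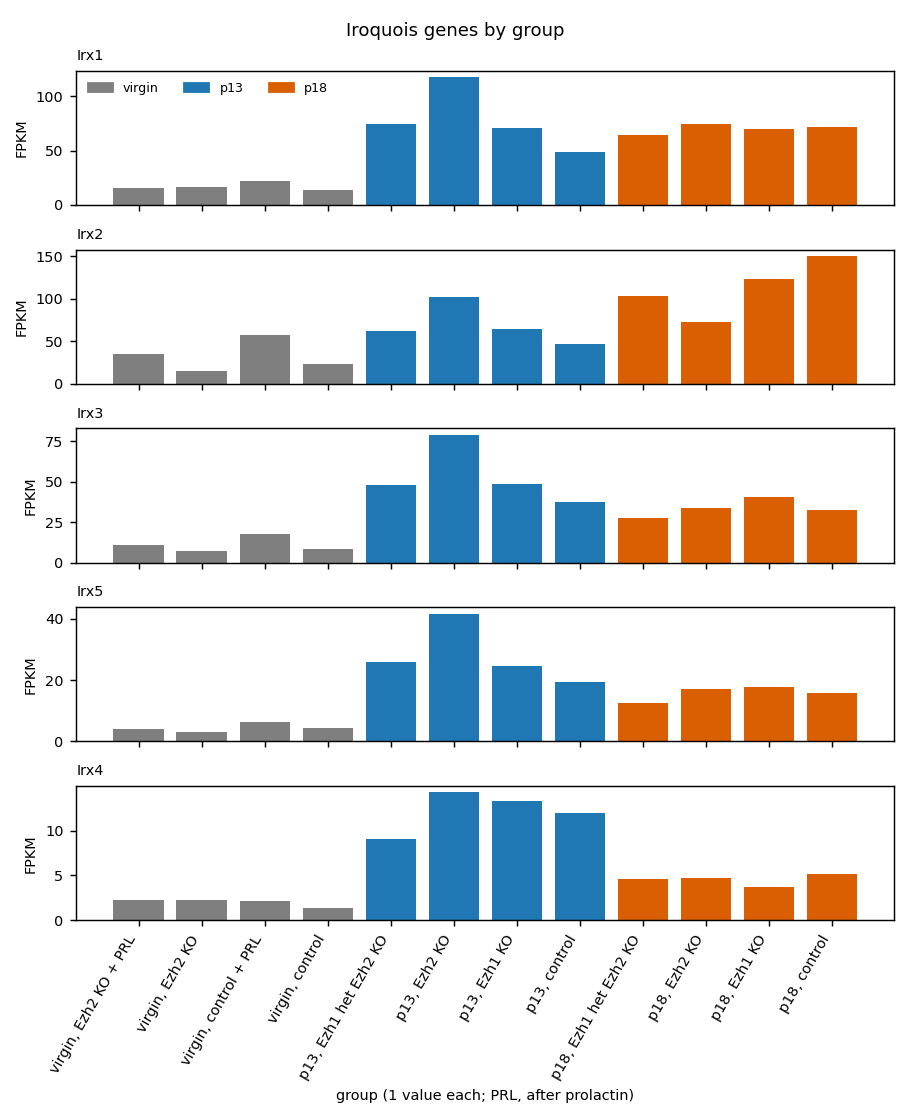
FPKM of the 5 Iroquois genes detected at 1 FPKM or more, 1 bar per group, with bars starting at 0 and virgin, p13 and p18 groups in grey, blue and orange. At p13 the Ezh2 KO bar is the tallest for all 5 genes, and at p18 Irx2 is lowest in the Ezh2 KO at 72.4 FPKM and highest in the control at 151 FPKM.

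For each pair of groups, log2(FPKM + 1) of the group named second was subtracted from that of the group named first, for the 14273 genes that reached 1 FPKM. The added 1 makes differences of weakly expressed genes look smaller than they are. A gene was counted as higher or lower where this difference was at least 1 log2 unit, which describes these values and tests nothing. The knockouts of a stage share their control group, so their differences are not independent of each other.

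In Ezh2 KO against control at p13, 4 of the 32 genes were higher and 3 were lower, where 2.65% of all genes were higher and 6.59% lower. The median difference was 0.05 log2 units over the 32 genes and 0.01 over all genes. All 4 higher genes were Iroquois genes. Irx1 was 2.42-fold higher (1.26 log2 units), Irx2 2.20-fold (1.12), Irx3 2.12-fold (1.07) and Irx5 2.14-fold (1.06). With groups rescaled to a common sum, 2 genes were higher and 3 lower, as Irx3 and Irx5 then missed the threshold, and to a common upper quartile or a common sum without milk proteins, 5 were higher and 3 lower. Just under the threshold lay Sox4, a SOXC factor of progenitor cells, at 46.2 FPKM in Ezh2 KO and 23.1 FPKM in control (0.97 log2 units).

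The summed level of the luminal markers was 2593 FPKM in Ezh2 KO and 1503 FPKM in control at p13, with 1 of 12 genes higher and 1 lower by the same threshold, and that of the basal markers was 1705 FPKM in Ezh2 KO and 1547 FPKM in control, with none of 10 past it. The median difference was 0.68 log2 units over the luminal markers, 0.17 over the basal markers and 0.01 over all genes. Milk proteins made up 14.8% of the summed FPKM in Ezh2 KO and 1.69% in control. The part of both marker sets in the Irx differences was not tested. In bulk tissue, fewer cells of a type and less RNA per cell cannot be told apart.

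Among the lower genes were Tbx15, a T-box factor of skeleton and adipocytes, and Lhx8, a LIM homeodomain factor of forebrain neurons and oocytes. Tbx15 stood at 4.53 FPKM in Ezh1 het Ezh2 KO, 2.25 FPKM in Ezh2 KO, 6.53 FPKM in Ezh1 KO and 9.26 FPKM in control at p13. It was 4.12-fold lower in Ezh2 KO than in control (a difference of -1.66 log2 units). Lhx8 stood at 1.43 FPKM in Ezh1 het Ezh2 KO, 1.06 FPKM in Ezh2 KO, 2.24 FPKM in Ezh1 KO and 5.08 FPKM in control, which made it 4.78-fold lower in Ezh2 KO (-1.56). Neither passed with a pseudocount of 5, at -0.98 for Tbx15 and -0.73 for Lhx8, and Irx3 and Irx5 missed the threshold too, at 0.99 and 0.93. For both genes the p13 control was the highest of the 4 groups and the Ezh2 KO the lowest.

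Some markers of cells outside the epithelium were lower as well, and others were not. In Ezh2 KO against control at p13, the summed level of white adipocyte markers was 12388 FPKM and 31410 FPKM, with 8 of 10 genes lower. Skeletal muscle markers summed to 18.2 FPKM in Ezh2 KO and 10058 FPKM in control, with the 10 measured genes of 12 all lower, and Schwann cell markers to 68.6 FPKM in Ezh2 KO and 409 FPKM in control, with 5 of 6 lower. Brown fat markers summed to 313 FPKM in Ezh2 KO and 139 FPKM in control, with 2 of 6 higher, and T and NK cell markers to 19.9 FPKM in Ezh2 KO and 10.1 FPKM in control, with 1 of 10 higher. Fibroblast markers summed to 1795 FPKM in Ezh2 KO and 2544 FPKM in control and endothelial markers to 233 FPKM in Ezh2 KO and 302 FPKM in control, with none of 7 and none of 9 past the threshold. Macrophage markers summed to 145 FPKM in Ezh2 KO and 245 FPKM in control. Erythroid markers summed to 346 FPKM in Ezh2 KO and 2066 FPKM in control. The part of all these markers in the differences of Tbx15 and Lhx8 was not tested. Muscle markers summed to 22.8 FPKM in the Ezh1 het Ezh2 KO, where Tbx15 stood at 4.53 FPKM, and to 2491 FPKM in the Ezh1 KO, where it stood at 6.53 FPKM.

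**Figure D3:**
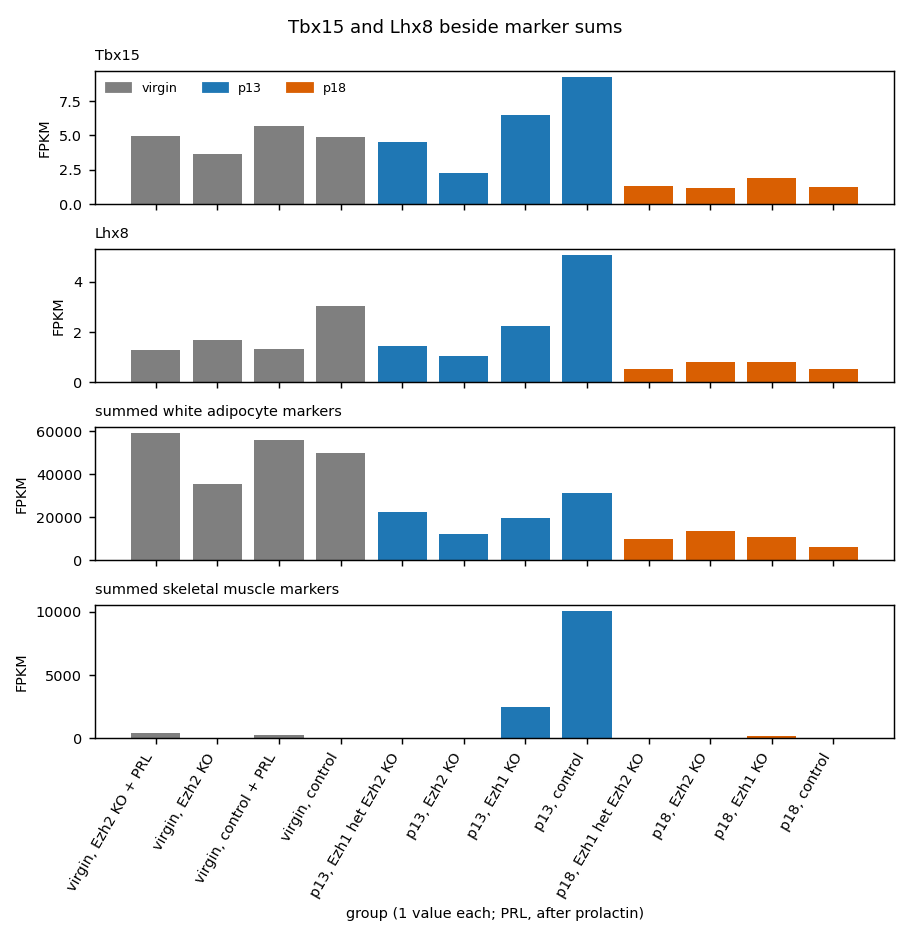
FPKM of Tbx15 and Lhx8 and the summed FPKM of 10 white adipocyte and 12 skeletal muscle markers, 1 bar per group from 0, with stages in colours. Among the p13 groups the control bar is the tallest in every panel, and Tbx15 is at or below 1.88 FPKM in all p18 groups.

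The other knockouts differed less at p13. In Ezh1 KO against control, 0 of the 32 genes were higher and 0 lower, where 2.1% of all genes were higher and 2.28% lower. With a pseudocount of 0.1 in place of 1, 2 of them passed the threshold. In Ezh1 het Ezh2 KO against control, 0 were higher and 1 was lower, Lhx8 (-1.32, but -0.65 with a pseudocount of 5), where 3.12% of all genes were higher and 3.19% lower. Irx1, Irx2, Irx3 and Irx5 lay above control in both of these knockouts, by 0.32 to 0.60 log2 units, and below the Ezh2 KO.

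Set directly against each other at p13, Ezh1 het Ezh2 KO and Ezh2 KO glands had no gene of the 32 past the threshold, where 2.8% of all genes were higher and 0.666% lower in Ezh1 het Ezh2 KO. In Ezh2 KO against Ezh1 KO, 1 of the 32 was lower, Tbx15 (-1.21, but -0.67 with a pseudocount of 5), and none was higher, where 1.11% of all genes were higher and 3.81% lower.

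**Figure D4:**
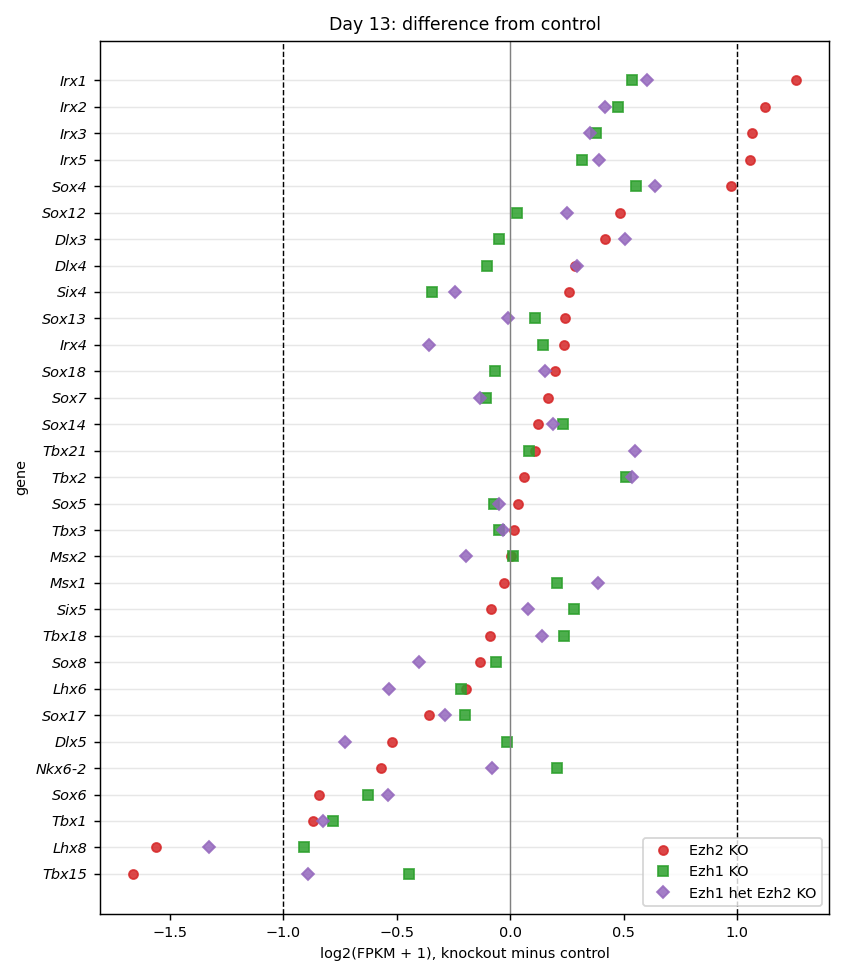
Difference from the p13 control in log2(FPKM + 1) for 31 of the 32 genes in Ezh2 KO (circles), Ezh1 KO (squares) and Ezh1 het Ezh2 KO (diamonds), with dashed lines at 1 log2 unit either way. Irx1, Irx2, Irx3 and Irx5 lie beyond the right line in Ezh2 KO alone, and Lhx8 lies beyond the left line both in Ezh1 het Ezh2 KO and in Ezh2 KO.

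At p18 fewer genes passed the threshold, and 17 to 20 of the 81 genes were at 1 FPKM or more in a group, against 27 to 29 at p13. These were 21.0% to 24.7% of the 81 genes at p18 and 33.3% to 35.8% at p13. Over all genes, 53.1% to 54.4% were at 1 FPKM or more in a p18 group and 57.2% to 58.8% in a p13 group. In Ezh2 KO against control, 1 of the 32 was lower and none higher, where 2.38% of all genes were higher and 2.14% lower. It was Irx2, at 72.4 FPKM in Ezh2 KO and 151 FPKM in control, 2.08-fold lower (-1.05). With a common sum this difference missed the threshold, as that scaling moved the median of all genes by 0.22 log2 units. Milk proteins made up 29.9% of the summed FPKM in Ezh2 KO and 47.0% in control.

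In Ezh1 KO against control at p18, 0 of the 32 were higher or lower, where 1.21% of all genes were higher and 1.39% lower, and with a pseudocount of 0.1, 1 passed. In Ezh1 het Ezh2 KO against control, 0 were higher or lower, where 1.23% of all genes were higher and 1.55% lower, and with a common sum 1 passed. In Ezh1 het Ezh2 KO against Ezh2 KO, 1 was lower, where 1.16% of all genes were higher and 1.4% lower. It was Sox4, at 8.34 FPKM in Ezh1 het Ezh2 KO and 21.9 FPKM in Ezh2 KO, a 2.62-fold lower level (-1.29). Ezh1 KO and control stood at 16.4 and 17.2 FPKM, so the Ezh1 het Ezh2 KO was the lowest p18 group for Sox4. In Ezh2 KO against Ezh1 KO, 0 of the 32 passed, where 1.04% of all genes were higher and 0.939% lower.

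In virgin glands before prolactin, 1 of the 32 genes was lower in Ezh2 KO than in control and none was higher, where 3.35% of all genes were higher and 0.911% lower. Msx2, a homeodomain factor that acts downstream of BMP signals, stood at 4.53 FPKM in Ezh2 KO and 11.4 FPKM in control, 2.52-fold lower (-1.17, but -0.78 with a pseudocount of 5). Its partner in the family, Msx1, stood at 0.781 FPKM in Ezh2 KO and 0.583 FPKM in control. The summed level of luminal markers was 903 FPKM in Ezh2 KO and 1690 FPKM in control, with 3 of 12 genes lower, that of B cell markers 154 FPKM in Ezh2 KO and 5.66 FPKM in control, with 5 of 5 higher, and that of T and NK cell markers 118 FPKM in Ezh2 KO and 9.83 FPKM in control, with 8 of 10 higher. Their part in the Msx2 difference was not tested. Tbx21, the T-box factor of T helper and NK cells, reached 1 FPKM in that Ezh2 KO group alone, at 1.27 FPKM, against 0.441 FPKM in control.

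After prolactin, 0 of the 32 were higher or lower in Ezh2 KO than in control, where 0.764% of all genes were higher and 2.71% lower. Msx2 stood at 2.02 FPKM in Ezh2 KO and 4.10 FPKM in control. Sox17 stood at 24.3 FPKM in Ezh2 KO and 21.7 FPKM in control.

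Within each virgin genotype, the gland after prolactin was set against the gland before it. In Ezh2 KO, 3 of the 32 genes were higher and none was lower, where 2.75% of all genes were higher and 4.08% lower. In control, 2 were higher and 1 was lower, where 4.76% of all genes were higher and 1.72% lower. With a common sum, with or without milk proteins, 1 was higher and 1 lower in Ezh2 KO and 2 were higher and 3 lower in control. These scalings moved the median of all genes by -0.16 log2 units in Ezh2 KO and by -0.14 in control. The share of all genes past the threshold is not given for them.

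Sox17 had the largest difference of the 32 genes in both genotypes. This SOXF factor of endothelium stood at 24.3 FPKM after and 4.55 FPKM before prolactin in Ezh2 KO (5.35-fold, 2.19 log2 units), and at 21.7 FPKM after and 3.10 FPKM before it in control (6.98-fold, 2.46 log2 units). In the 8 groups of pregnant mice it ran from 1.24 to 3.77 FPKM, so the pair of groups after prolactin stood apart from all others. The other SOXF genes were short of the threshold in both genotypes. Sox18 stood at 32.7 FPKM after and 26.8 FPKM before prolactin in Ezh2 KO, and at 25.2 FPKM after and 19.6 FPKM before it in control. Sox7 stood at 6.68 FPKM after and 6.30 FPKM before it in Ezh2 KO, and at 3.95 FPKM after and 3.81 FPKM before it in control. The summed level of 9 endothelial markers was 358 FPKM after and 346 FPKM before it in Ezh2 KO, and 319 FPKM after and 228 FPKM before it in control, with none of the 9 past the threshold in either genotype. The part of endothelial cells in the Sox17 difference was not tested.

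Irx2 was the other gene higher in both genotypes, 2.22-fold in Ezh2 KO (1.10 log2 units) and 2.54-fold in control (1.31 log2 units), from the values given above. In Ezh2 KO it missed the threshold with a common sum, with or without milk proteins, and with a pseudocount of 5. Thus 2 of the 32 genes (6.25%) and 1.79% of all genes were higher in both, and 0 of the 32 and 0.652% of all genes were lower in both. Irx3 only just missed the threshold in control, at 17.4 FPKM after and 8.25 FPKM before prolactin (0.996 log2 units). In Ezh2 KO the Irx3 difference was 0.57. Irx1 differed by 0.64 in control and by -0.09 in Ezh2 KO. Tbx3, the T-box repressor of the mammary placode, stood at 12.4 FPKM after and 5.37 FPKM before prolactin in Ezh2 KO (1.07 log2 units), and at 12.6 FPKM after and 7.21 FPKM before it in control (0.72 log2 units). In Ezh2 KO it missed the threshold under all 3 rescalings and with a pseudocount of 5.

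Msx2 was the lower gene in control, at 4.10 FPKM after and 11.4 FPKM before prolactin (2.78-fold lower, -1.28, but -0.85 with a pseudocount of 5). In Ezh2 KO it stood at 2.02 FPKM after and 4.53 FPKM before it, short of the threshold. Basal markers summed to 725 FPKM after and 413 FPKM before prolactin in Ezh2 KO, and to 603 FPKM after and 314 FPKM before it in control, with 3 of 10 genes higher in each. Fibroblast markers summed to 1439 FPKM after and 1683 FPKM before it in Ezh2 KO, and to 1201 FPKM after and 1613 FPKM before it in control. The B cell markers summed to 1.13 FPKM after and 154 FPKM before it in Ezh2 KO, and to 126 FPKM after and 5.66 FPKM before it in control, thus in opposite directions. Their part in these differences was not tested.

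**Figure D5:**
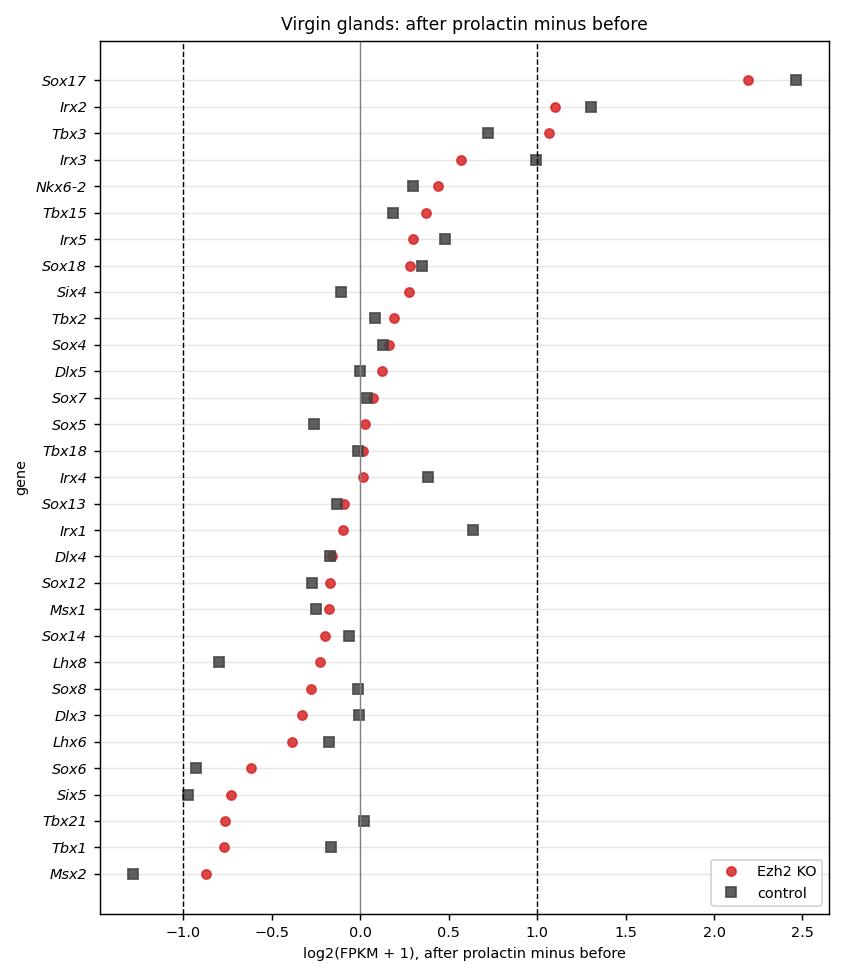
Difference in log2(FPKM + 1) between virgin glands after and before prolactin for 31 of the 32 genes, in Ezh2 KO (circles) and control (squares), with dashed lines at 1 log2 unit either way. Sox17 and Irx2 lie beyond the right line in both genotypes, Tbx3 in Ezh2 KO only, and Msx2 beyond the left line in control only.

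Between virgin and pregnant glands the differences were larger. In Ezh2 KO at p13 against virgin before prolactin, 10 of the 32 genes were higher and 4 lower, where 11% of all genes were higher and 9.11% lower. In control, 7 were higher and 1 was lower, where 9.12% of all genes were higher and 2.76% lower. The median difference was 0.17 log2 units over the 32 genes and 0.12 over all genes in Ezh2 KO, and 0.47 over the 32 genes and 0.17 over all genes in control.

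Irx1, Irx3, Irx4 and Irx5 were higher at p13 in both genotypes. In Ezh2 KO the folds were 12.9 for Irx5, 11.0 for Irx3, 7.03 for Irx1, 6.58 for Irx2 and 6.35 for Irx4. In control Irx4 was 8.43-fold higher and the differences of Irx1, Irx3 and Irx5 were 1.73, 2.04 and 1.95 log2 units. Irx2, at 46.3 FPKM at p13 and 22.8 FPKM in virgin control glands, fell just short of the threshold (0.99). The 10 basal markers were all higher at p13 in both genotypes, with sums of 1705 FPKM at p13 and 413 FPKM in virgin glands for Ezh2 KO, and 1547 FPKM at p13 and 314 FPKM in virgin glands for control. Luminal markers summed to 2593 FPKM at p13 and 903 FPKM in virgin glands for Ezh2 KO, with 6 of 12 higher and 3 lower, and to 1503 FPKM at p13 and 1690 FPKM in virgin glands for control, with 3 of 12 higher and 4 lower. Their part in the Irx differences was not tested.

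Dlx3, a distal-less factor of skin and hair follicle, and Sox8, a SOXE factor, were also higher in both genotypes. Dlx3 stood at 5.73 FPKM at p13 and 0.564 FPKM in virgin Ezh2 KO glands, and at 4.05 FPKM at p13 and 0.480 FPKM in virgin control glands. Sox8 stood at 3.40 FPKM at p13 and 0.904 FPKM in virgin Ezh2 KO glands, and at 3.82 FPKM at p13 and 0.556 FPKM in virgin control glands. Sox14, a SOXB factor of the nervous system, was higher in control (1.16 log2 units) and just short of the threshold in Ezh2 KO (0.94). Sox4, Sox12 and Six4 were higher in Ezh2 KO, by 2.05, 1.36 and 1.05 log2 units, and Six4 missed the threshold with a common sum or upper quartile. Sox4 alone of Dlx3, Sox8, Sox14, Sox4, Sox12 and Six4 stayed past it with a pseudocount of 5.

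Msx2 was lower at p13 in both genotypes. It stood at 1.64 FPKM at p13 and 4.53 FPKM in virgin Ezh2 KO glands (-1.07), and at 1.63 FPKM at p13 and 11.4 FPKM in virgin control glands (-2.24). In Ezh2 KO Sox6 (-1.15) and Tbx1 (-1.04) were lower as well. Sox6, a SOXD factor of cartilage and muscle, stood at 1.53 FPKM at p13 and 4.61 FPKM in virgin Ezh2 KO glands, and Tbx1, a factor of the pharyngeal arches, at 0.246 FPKM at p13 and 1.57 FPKM in virgin Ezh2 KO glands. White adipocyte markers summed to 12388 FPKM at p13 and 35555 FPKM in virgin Ezh2 KO glands, with all 10 lower, and their part was not tested. With a pseudocount of 5 these genes missed the threshold in Ezh2 KO, while Msx2 stayed past it in control (-1.31).

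At p18 against p13 the median difference lay below 0 both for the 32 genes and for all genes. Milk proteins came to 29.9% to 47.0% of the summed FPKM at p18, against 1.69% to 14.8% at p13. The median difference, p18 minus p13, was -0.69 log2 units over the 32 genes and -0.48 over all genes in Ezh1 het Ezh2 KO. It was -0.57 and -0.45 in Ezh2 KO, -0.65 and -0.48 in Ezh1 KO, and -0.78 and -0.46 in control, each time with the 32 genes given before all genes. In Ezh1 het Ezh2 KO, 8 of the 32 were lower and none higher, where 16% of all genes were lower and 1.66% higher. In Ezh2 KO, 5 were lower and none higher, where 4.1% of all genes were lower and 1.1% higher. In Ezh1 KO, 6 were lower and none higher, where 12.1% of all genes were lower and 1.56% higher. In control, 8 were lower and 1 was higher, where 19.1% of all genes were lower and 3.55% higher.

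These splits moved with the scaling, and no share of all genes past the threshold is given for the rescaled values. A common upper quartile shifted the median of all genes by 0.31 to 0.42 log2 units in the 4 genotypes. It left 4 genes lower and 1 higher in Ezh1 het Ezh2 KO, 0 and 0 in Ezh2 KO, 3 and 1 in Ezh1 KO, and 5 and 2 in control. A common sum shifted the median of all genes by -0.62 in Ezh1 het Ezh2 KO, -0.10 in Ezh2 KO, -0.54 in Ezh1 KO and -0.45 in control.

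The gene that was higher at p18 was Irx2 in control, at 151 FPKM at p18 and 46.3 FPKM at p13 (3.25-fold, 1.68 log2 units). In Ezh2 KO Irx2 stood at 72.4 FPKM at p18 and 102 FPKM at p13 (-0.49 log2 units), and a common upper quartile turned this sign. Irx4 was lower in Ezh2 KO (-1.40), Ezh1 KO (-1.61) and control (-1.06). Irx3 (-1.21) and Irx5 (-1.23) passed the threshold as lower in Ezh2 KO alone. In Ezh1 het Ezh2 KO Irx5 fell just short of it, at 12.7 FPKM at p18 and 25.9 FPKM at p13. Irx3 stood there at 27.7 FPKM at p18 and 47.8 FPKM at p13. No test of the difference between genotypes could be made.

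Tbx15 was lower at p18 in Ezh1 het Ezh2 KO (-1.28), Ezh1 KO (-1.39) and control (-2.20). In Ezh2 KO Tbx15 stood at 1.20 FPKM at p18 and 2.25 FPKM at p13. Sox4 was lower in the 3 knockouts, at 8.34 FPKM at p18 and 36.4 FPKM at p13 in Ezh1 het Ezh2 KO (-2.00), 21.9 FPKM at p18 and 46.2 FPKM at p13 in Ezh2 KO (-1.05), and 16.4 FPKM at p18 and 34.4 FPKM at p13 in Ezh1 KO (-1.02). In control Sox4 stood at 17.2 FPKM at p18 and 23.1 FPKM at p13.

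Other genes were lower in 1 or 2 of the 4 genotypes, except Dlx3, which was lower in Ezh1 het Ezh2 KO (-1.27), Ezh2 KO (-1.02) and control (-1.32). Lhx8 (-1.98) was lower in control. Sox6 was lower in Ezh1 het Ezh2 KO (-1.07) and control (-1.64), Sox8 in Ezh1 KO (-1.56) and control (-1.44), Tbx3 in Ezh1 het Ezh2 KO (-1.08) and control (-1.03), and Tbx2, the close relative of Tbx3, in Ezh1 het Ezh2 KO (-1.30) and Ezh1 KO (-1.14). Sox13 (-1.06) was lower in Ezh1 het Ezh2 KO. Among those just short of the threshold were Dlx3 in Ezh1 KO (-0.98), Sox8 in Ezh2 KO (-0.98) and Tbx3 in Ezh2 KO (-0.95). White adipocyte markers summed to 9945 FPKM at p18 and 22290 FPKM at p13 in Ezh1 het Ezh2 KO, to 13417 FPKM at p18 and 12388 FPKM at p13 in Ezh2 KO, to 10725 FPKM at p18 and 19743 FPKM at p13 in Ezh1 KO, and to 5934 FPKM at p18 and 31410 FPKM at p13 in control. Lower were 8, 0, 6 and 10 of the 10 adipocyte genes in that order of genotypes, and 1 was higher in Ezh2 KO. Of the 7 fibroblast markers 5 were lower in Ezh2 KO and 7 in each other genotype, and of the 6 Schwann cell markers 6 were lower in Ezh1 het Ezh2 KO, 0 in Ezh2 KO, 5 in Ezh1 KO and 6 in control. Muscle markers summed to 51.8 FPKM at p18 and 10058 FPKM at p13 in control. Their part in these differences was not tested. With a pseudocount of 5 most of these differences at p18 against p13 missed the threshold, and those that stayed past it included Sox4 in Ezh1 het Ezh2 KO, Irx3 and Irx5 in Ezh2 KO, Irx4 in Ezh1 KO, and Irx2 and Tbx15 in control.

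Further genes of the 32 are given here by their range or highest value over the 12 groups. Sox18, a SOXF factor of vessels, ran from 16.5 to 32.7 FPKM over the 12 groups, the smallest ratio of highest to lowest among the 32 genes (1.98). Sox13 ran from 4.34 to 12.3 FPKM, Six5 from 2.03 to 7.80 FPKM, Lhx6, an interneuron factor, from 1.12 to 3.31 FPKM, and Sox5, the relative of Sox6, from 0.619 to 1.66 FPKM. Nkx6-2, a factor of oligodendrocytes and the detected member of the Nkx family, ran from 0.494 to 3.25 FPKM, with both ends in control glands. Tbx18, a factor of epicardium and sinus node, ran from 0.482 to 2.06 FPKM. Dlx5, a bone factor, and Dlx4 did not exceed 1.20 and 1.15 FPKM, and Msx1 reached 1.11 FPKM in Ezh1 het Ezh2 KO at p13 and stayed below 1 FPKM elsewhere.

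Partners and regulators of these families were counted by the same threshold. Of 13 genes for PRC2 subunits and H3K27 demethylases, none was higher or lower in Ezh2 KO against control at p13 or p18. Over all genes the shares were 2.65% higher and 6.59% lower at p13, and 2.38% higher and 2.14% lower at p18. Of the 4 detected Eya and Dach genes, partners of sine oculis factors, and the 5 detected partners of LIM homeodomain factors, none passed in Ezh2 KO against control at p13, and of 8 detected TALE partners 1 was lower, Pknox2, at 1.36 FPKM in Ezh2 KO and 4.33 FPKM in control. Of 13 detected signals of the embryonic mammary bud, 2 were lower, Fgf10 and Wnt10b. Fgf10, a growth factor of the fat pad, stood at 10.2 FPKM in Ezh2 KO and 32.5 FPKM in control, and Wnt10b at 0.225 FPKM in Ezh2 KO and 1.88 FPKM in control.

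Of 56 developmental transcription factors from other families, 19 were detected, and 2 were higher and 4 lower in Ezh2 KO against control at p13, where 2.65% of all genes were higher and 6.59% lower. Barx2 stood at 88.0 FPKM in Ezh2 KO and 40.3 FPKM in control, and Foxc1 at 12.9 FPKM in Ezh2 KO and 5.80 FPKM in control. The lower ones were Prrx1, a mesenchymal factor, at 9.69 FPKM in Ezh2 KO and 26.9 FPKM in control, together with Emx2, Osr2 and En1. In Ezh2 KO against control at p18 none of the 19 passed, and in Ezh1 KO against control none passed at p13, where 2.1% of all genes were higher and 2.28% lower, or at p18, where 1.21% were higher and 1.39% lower.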

How the data were processed

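The deposited table holds FPKM for 22552 genes in 12 columns, each the authors' value for a group of 2 or 3 libraries. The way libraries were merged was not given in the sources used here. The tools named, without versions or roles, are TopHat, Bowtie, BWA, Cufflinks, Cuffdiff, HOMER, FastQC, CASAVA and Trim Galore, and the build is mm9, per the submitters' processing notes. Whole reads could not be recovered, since the most common ratio between low values, to 3 decimals, covered 1.79% of 1282 genes. None of 14 ubiquitous genes was listed at 0. A limma model was planned and could not be fitted with 1 value per group.

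From the deposited FPKM, differences were computed as log2(FPKM + 1) for 14273 genes with at least 1 FPKM in a group, and folds divide the plain FPKM values. A difference of at least 1 log2 unit was counted, for these genes and for all. Rescaled versions bring every group to a common sum, a common upper quartile, or a common sum without 15 milk protein genes. Shares of all genes past the threshold are given for the deposited FPKM with a pseudocount of 1 only. The rule for named genes takes each of the 32 detected genes, every one past the threshold in a comparison, the highest undetected one of each family, and up to 3 examples of a list, or more where a statement names all. Some genes that it takes are counted but not reported here by name or plotted. The genes, marker lists and partner lists were chosen with earlier results of these data known. Gene order and promoters came from RefSeq (GRCm38), where 80 of 81 symbols matched. The code was tested on simulated data. Python 3.11.15, pandas 2.3.3, NumPy 2.4.6 and matplotlib 3.10.9 were used. The 9 chromatin immunoprecipitation libraries were not analysed here.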

Additional observations from a re-analysis of the deposited data

Results flagged for a closer look

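Irx2 differed between Ezh2 KO and control in opposite directions at the 2 stages of pregnancy. At p13 it was higher in Ezh2 KO, at 102 FPKM against 46.3 FPKM in control, a difference of 1.12 log2 units. At p18 it was lower in Ezh2 KO, at 72.4 FPKM against 151 FPKM in control, a difference of -1.05 log2 units. The difference between the stages was not tested, since each group has 1 value, and the p18 difference missed 1 log2 unit when groups were rescaled to a common sum.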

How the results depend on the processing

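All limits come from 1 value per group: no replicate could be left out, and no error or depth is known. No paired analysis was possible because the table has no column per library. The counts below are of the 32 genes past 1 log2 unit, with the count at the settings of the text in parentheses. No share of all genes is given at these other settings, so the counts describe the 32 genes alone. The filter (none, or 5 FPKM) left every count within 1.5 times, and 34 and 25 of the 81 genes reached 0.5 and 2 FPKM.

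With a pseudocount of 5 the count was 2 (7) for Ezh2 KO against control, 0 (1) for Ezh1 het Ezh2 KO against control and 0 (1) for Ezh2 KO against Ezh1 KO at p13. It was 0 (1) for Ezh2 KO against control in virgin glands before prolactin and 1 (3) for prolactin in Ezh2 KO. For p13 against virgin it was 6 (14) in Ezh2 KO and 5 (8) in control, and for p18 against p13 it was 1 (8) in Ezh1 het Ezh2 KO, 2 (5) in Ezh2 KO, 1 (6) in Ezh1 KO and 3 (9) in control. A larger pseudocount shrinks the difference of low genes by construction.

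With a pseudocount of 0.1 it was 5 (1) for Ezh1 het Ezh2 KO and 2 (0) for Ezh1 KO against control, 2 (0) for Ezh1 het Ezh2 KO against Ezh2 KO and 5 (1) for Ezh2 KO against Ezh1 KO at p13. At p18 it was 2 (0) for Ezh1 het Ezh2 KO, 3 (1) for Ezh2 KO and 1 (0) for Ezh1 KO against control. It was 3 (1) for virgin Ezh2 KO against control before prolactin, 6 (3) for prolactin in Ezh2 KO and 7 (3) in control. For p18 against p13 it was 17 (8) in Ezh1 het Ezh2 KO, 12 (5) in Ezh2 KO, 16 (6) in Ezh1 KO and 18 (9) in control.

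With a common sum it was 1 (0) for Ezh1 het Ezh2 KO and 0 (1) for Ezh2 KO against control at p18, 5 (3) for prolactin in control, and 20 (8), 8 (5), 17 (6) and 19 (9) for p18 against p13 in Ezh1 het Ezh2 KO, Ezh2 KO, Ezh1 KO and control. With a common upper quartile it was 1 (0) for Ezh1 het Ezh2 KO against control at p18, and 5 (8) and 0 (5) for p18 against p13 in Ezh1 het Ezh2 KO and Ezh2 KO. With a common sum without milk proteins it was 1 (0) for Ezh1 het Ezh2 KO against control at p18, 5 (3) for prolactin in control and 3 (5) for p18 against p13 in Ezh2 KO. The cause was not tested. Of 68 single differences past the threshold none changed sign; 43 missed it with a pseudocount of 5, 17 with a common upper quartile, 8 without milk proteins and 6 with a common sum.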
